A study of Mus musculus with 7 samples.

Results

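The binding sites of retinoic acid receptor β (RARβ) and of its partner retinoid X receptor α (RXRα) were compared in livers of mice fed a diet with retinoic acid (RA), by chromatin immunoprecipitation followed by sequencing (ChIP-seq). The members were all peaks of the 2 deposited lists, 29467 for RARβ and 59624 for RXRα, together 89091 of the 245004 peaks in the 6 lists of the series. Shared peaks were those with an overlap of 1 bp or more with the list of the other receptor, and the rest were receptor-specific. The same comparison was made with the RXRα list cut to the length of the RARβ list by peak score.

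The mice were male C57BL/6, 3 months old, and unmodified as far as the labels say. Both libraries came from the RA diet, given for 1 day according to the labels, whereas the methods of the study give a longer RA treatment, so the duration is not settled. The other 4 lists were RARα under RA and RARα, RARβ and RXRα under the control diet, and an input library was not analysed here. Each list came from 1 library, so every difference below describes these libraries, has no replicate check and carries no test. Wilson 95% intervals on shares cover counting error only.

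RARs are nuclear receptors that bind all-trans RA and act as heterodimers with an RXR, classically on direct repeats of the half-site AGGTCA, above all with a spacer of 5 bases (DR5). RXRα is also the obligate partner of other liver receptors, among them PPARα for fatty acid oxidation, LXR for cholesterol and lipogenesis, FXR for bile acids, and PXR and CAR for xenobiotics. RXRα therefore has binding sites in liver that belong to dimers without an RAR.

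The 5 promoters below show what the 2 lists looked like at the sequence level. Each is the RefSeq promoter window of GRCm38.p6, from 250 bases before a gene start to 50 after it, read 5′ to 3′ on the strand of the gene, and each window lies wholly inside the peak or peaks named. Capitals mark receptor half-sites, searched on both strands as the letters AGGTCA, then with the first base changed as GGGTCA, with the third base changed as AGTTCA, and with both changed as GGTTCA, and a match is a description, not a binding site. Cyp26a1 and Rarb are classical RA target genes and both windows held a DR5 under shared peaks. Coq10b was the shared window with the lowest sum of the 2 ranks, Abhd2 had the highest score among windows under RARβ alone, and Slc51b had the highest among windows under RXRα alone. The windows are Cyp26a1 at chr19:37697558-37697857 (plus strand), Rarb at chr14:16575427-16575726 (minus strand), Coq10b at chr1:55052520-55052819 (plus strand), Abhd2 at chr7:79273016-79273315 (plus strand) and Slc51b at chr9:65422724-65423023 (minus strand). The Rarb window was chosen after its values were seen.
Cyp26a1: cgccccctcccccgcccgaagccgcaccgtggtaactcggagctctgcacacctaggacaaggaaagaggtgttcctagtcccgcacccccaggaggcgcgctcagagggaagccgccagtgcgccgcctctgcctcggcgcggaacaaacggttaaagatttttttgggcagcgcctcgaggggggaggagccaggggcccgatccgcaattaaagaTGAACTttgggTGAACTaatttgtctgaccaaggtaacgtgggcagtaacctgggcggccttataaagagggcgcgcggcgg
Rarb: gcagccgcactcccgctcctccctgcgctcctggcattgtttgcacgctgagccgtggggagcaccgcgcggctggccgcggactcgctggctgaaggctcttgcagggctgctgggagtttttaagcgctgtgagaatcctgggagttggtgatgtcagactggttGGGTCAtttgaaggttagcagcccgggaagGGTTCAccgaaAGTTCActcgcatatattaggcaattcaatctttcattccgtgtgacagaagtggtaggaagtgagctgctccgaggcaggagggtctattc
Coq10b: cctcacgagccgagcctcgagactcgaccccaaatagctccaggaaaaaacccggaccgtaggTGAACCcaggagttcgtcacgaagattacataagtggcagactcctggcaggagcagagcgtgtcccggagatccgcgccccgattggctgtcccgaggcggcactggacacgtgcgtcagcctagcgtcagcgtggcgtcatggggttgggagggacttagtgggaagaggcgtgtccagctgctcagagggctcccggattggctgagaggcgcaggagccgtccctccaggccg
Abhd2: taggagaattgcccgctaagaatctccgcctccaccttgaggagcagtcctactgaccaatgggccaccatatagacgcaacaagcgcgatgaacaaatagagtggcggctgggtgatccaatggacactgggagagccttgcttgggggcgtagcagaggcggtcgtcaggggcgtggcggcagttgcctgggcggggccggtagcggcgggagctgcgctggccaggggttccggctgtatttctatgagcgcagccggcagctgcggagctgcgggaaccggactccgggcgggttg
Slc51b: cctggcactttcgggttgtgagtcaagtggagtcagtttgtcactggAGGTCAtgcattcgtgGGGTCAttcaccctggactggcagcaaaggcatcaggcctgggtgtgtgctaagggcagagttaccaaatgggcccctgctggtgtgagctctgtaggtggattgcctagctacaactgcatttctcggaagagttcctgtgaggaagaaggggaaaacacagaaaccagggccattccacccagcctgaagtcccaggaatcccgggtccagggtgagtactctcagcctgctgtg
The window of Cyp26a1 held 2 half-sites and that of Rarb 3, and in both genes a pair formed the DR5. Coq10b had 1 half-site, Abhd2 had 0, and Slc51b had 2 that formed no direct repeat with a spacer of 0 to 5 bases.

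In the full lists, most RARβ peaks lay on RXRα peaks, while most RXRα peaks overlapped no RARβ peak. The second share is limited by list length, because the RXRα list is far longer and most shared peaks have a single partner. It was 67.8% at equal length. Of the 29467 RARβ peaks, 26646 overlapped an RXRα peak (90.4%, 95% interval 90.1 to 90.8) and 2821 did not. Of the 59624 RXRα peaks, 27067 overlapped a RARβ peak (45.4%, 45 to 45.8) and 32557 did not. The RARβ list covered 22.6 Mb with a median peak width of 675 bp, and the RXRα list covered 38.9 Mb with a median width of 563 bp.

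With the RXRα list cut to its 29467 highest-scoring peaks, which dropped 30157 peaks (50.6%), the overlap was 68.3% of the RARβ peaks (67.8 to 68.9) and 67.8% of the RXRα peaks (67.2 to 68.3), and 9333 RARβ peaks had no partner. The 2 shares are bound to be close here, because the lists then have the same length and most shared peaks have a single partner. The limit fell at a score of 146.56, which the last peak kept and the first peak dropped both had. The score is the peak caller's own value, made from the p-value of each peak within its library, so it ranks peaks within a list and is not a binding strength that can be set against another list. Read totals are not in the lists, so the depth behind each is unknown.

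The strongest peaks of the 2 receptors were largely different places. Among the 1000 highest-scoring peaks of each list, 185 overlapped (18.5%, 16.2 to 21). Among the top 5000 the share was 35.9%, and among the top 10000 it was 48% of the RARβ peaks. Yet 95.1% of the top 1000 RARβ peaks met an RXRα peak somewhere in the full list, and 98.8% of the top 1000 RXRα peaks met a RARβ peak. The leading peaks of one receptor thus had a partner, but as a rule one further down the other list.

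In the full lists, low-scoring peaks overlapped less often, to a small extent for RARβ and to a large extent for RXRα. With 29467 RARβ peaks for 59624 RXRα peaks, and mostly single partners, the RXRα shares are limited by list length. Deciles at equal length were not compared. With each list divided into deciles by score, the shared share of RARβ peaks was 96.5% in the highest decile, 95.4% in decile 5 and 74.3% in the lowest. For RXRα it was 93.3% in the highest decile, 45.1% in decile 5 and 13.9% in the lowest.

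**Figure D1:**
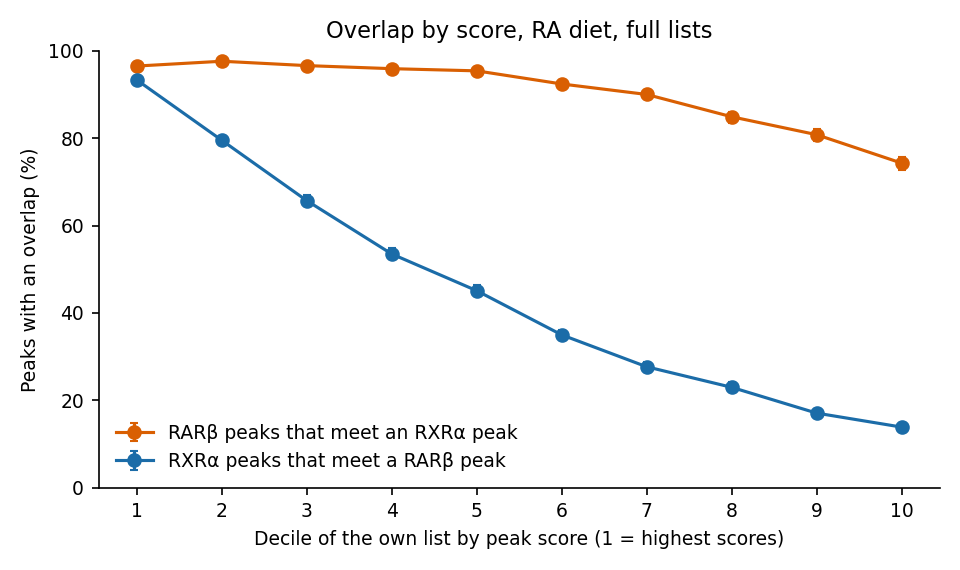
Share of peaks that overlap a peak of the other receptor (y axis, %) in each decile of the own list by score (x axis, 1 is the highest), with Wilson 95% intervals. RARβ peaks stay between 74.3% and 97.6%, and RXRα peaks go from 93.3% down to 13.9%, in full lists of unequal length.

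Shared sites were closely superimposed. The lists formed 27462 overlapping pairs, in which 25835 RARβ peaks had 1 RXRα partner and 811 had 2 or more. The midpoints of a pair were 77 bp apart in the median (quartiles 35 and 149 bp), and 60.7% lay within 100 bp. An overlap covered 89.8% of the RARβ width and 86.2% of the RXRα width in the median, and 519 pairs overlapped by less than 25% of either width. Scores of the pairs were loosely related, with a Spearman rho of 0.33 over 26646 shared RARβ peaks and their best partners, given as a description because scores share width and local read depth.

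The receptor-specific peaks were the lower-scoring and narrower ones in each list. RARβ-only peaks had a median score of 65.2 and a median width of 519 bp, against 104 and 690 bp for the shared RARβ peaks, and 529 of them (18.8%) reached a score of 100. RXRα-only peaks had a median score of 98.7 and a width of 467 bp, against 259 and 721 bp for the shared RXRα peaks, and 16022 (49.2%) reached a score of 100. Many lay beside a peak of the other receptor without touching it, since the nearest RXRα peak was within 1 kb of 19.9% of the RARβ-only peaks and within 10 kb of 62.7%. For RXRα-only peaks the nearest RARβ peak was within 1 kb of 9% and within 10 kb of 44.9%.

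RARβ-only peaks lay at promoters more often than the other classes, and RXRα-only peaks lay there least often. A midpoint within 1 kb of the start of a protein-coding gene was found for 33.7% of the RARβ-only peaks (32 to 35.5), 26% of the shared RARβ peaks (25.5 to 26.5) and 4.99% of the RXRα-only peaks (4.76 to 5.24). Among RARβ-only peaks with a score of at least 100, 360 of 529 (68.1%, 64 to 71.9) lay within 1 kb, and among RXRα-only peaks with such a score 681 of 16022 did (4.25%, 3.95 to 4.57). Of the RXRα-only peaks, 53.6% lay 10 to 100 kb from the nearest start and 20.7% lay beyond 100 kb. Read the other way, an RXRα peak within 1 kb of a start had a RARβ partner in 81.5% of cases, against 41.7% at 1 to 10 kb, 39.3% at 10 to 100 kb and 35.9% beyond. RARβ peaks showed a smaller difference in the other direction, with 87.9% shared within 1 kb and 92.3% beyond 100 kb. At a score of at least 100, 93.3% of RARβ peaks were shared within 1 kb and 98.6% beyond 10 kb. Under a score of 100 the shares were 76.1% and 86.4%.

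**Figure D2:**
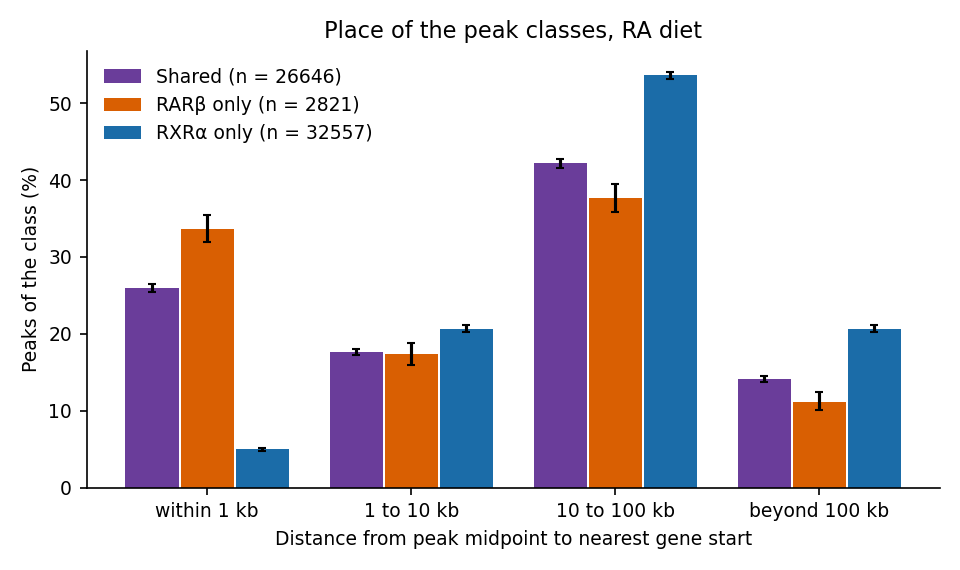
Share of the peaks of each class (y axis, %) by distance from the peak midpoint to the nearest protein-coding gene start (x axis), with Wilson 95% intervals. RARβ-only peaks are most frequent within 1 kb relative to the other classes (33.7%), where RXRα-only peaks reach 4.99%.

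At shared sites the ranks of the receptors differed by place. At the 6933 shared RARβ peaks within 1 kb of a start, the median RARβ score was 142 and the median score of the best RXRα partner 173, which put RARβ at 29.5% and RXRα at 42.8% of the way down its own list. At the 15017 shared peaks beyond 10 kb, the median scores were 93.8 and 332, with RARβ at 53.6% and RXRα at 20.4%. Shared promoter sites thus ranked higher for RARβ than for RXRα, and shared distal sites ranked higher for RXRα. The top 1000 RARβ peaks had 50% of their midpoints within 1 kb of a start, and the top 1000 RXRα peaks 3.6%.

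**Figure D3:**
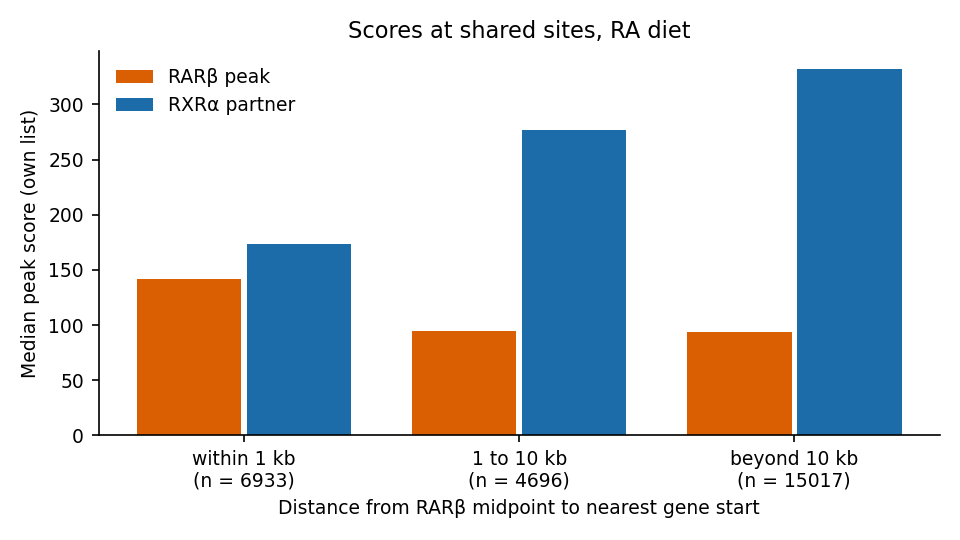
Median score of shared RARβ peaks and of their best RXRα partners (y axis, score within the own list) by distance from the RARβ midpoint to the nearest gene start (x axis, with the number of peaks). The RXRα median is 173 within 1 kb and 332 beyond 10 kb, and the RARβ median is 142 and 93.8.

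RARβ peaks that lost their partner at equal length lay often at promoters. Of the 26646 shared RARβ peaks, 20134 kept a partner among the top 29467 RXRα peaks and 20.7% of these lay within 1 kb of a start. The 6512 whose partners were all dropped had 42.4% within 1 kb, beside 33.7% of the 2821 that had no partner in the full list. At equal length, 39.8% of the RARβ peaks without a partner and 3.9% of the RXRα peaks without one lay within 1 kb.

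The other 4 lists, which were not used to form the classes, showed where each class had been called elsewhere. The RARβ and RXRα control lists are not independent of the classes. RARβ-only peaks were picked for lacking RXRα under RA, and RXRα-only peaks for lacking RARβ under RA. The part of this choice in the shares was not tested. Shared RARβ peaks overlapped a peak of the RXRα control list in 93.7% of cases, of the RARα RA list in 74.3%, of the RARα control list in 62.4% and of the RARβ control list in 40%, and 1.96% were in no other list. RARβ-only peaks overlapped RARα RA peaks in 60% of cases and RARα control peaks in 58.5%, but RXRα control peaks in 33.4%, and 21.8% were in none of the 4. RXRα-only peaks overlapped RXRα control peaks in 70.2% of cases, RARα RA peaks in 23.5% and RARβ control peaks in 4.52%, and 23.6% were in none.

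These shares varied with place and score. Among RARβ-only peaks with a score of at least 100, 80.9% overlapped a RARα RA peak, 75.2% a RARβ control peak and 43.9% an RXRα control peak. Of the RARβ-only peaks within 1 kb of a start, 78.9% overlapped a RARα RA peak, against 47.7% beyond 10 kb. For shared RARβ peaks the same shares were 95.1% and 67.2%. The lists differ in length, with 14968 peaks in the RARβ control list and 61128 in the RXRα control list, and the part of length in these shares was not tested.

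**Figure D4:**
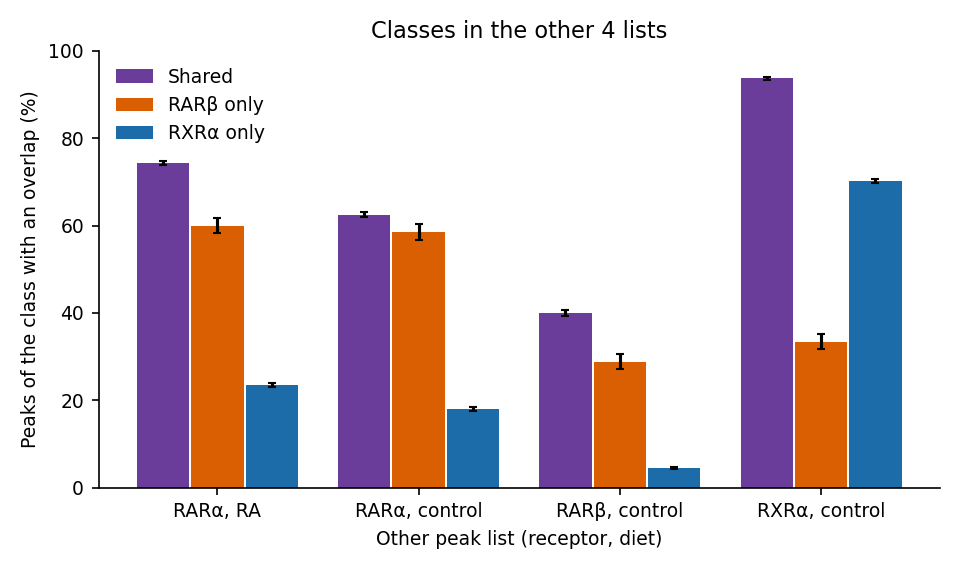
Share of shared RARβ, RARβ-only and RXRα-only peaks (y axis, %) that overlap by at least 1 bp a peak of the other 4 lists (x axis), with Wilson 95% intervals. RARβ-only peaks are found in the RARα lists (60% and 58.5%) more often than in the RXRα control list (33.4%), and RXRα-only peaks are found mainly in the RXRα control list (70.2%). The classes were formed by RARβ and RXRα overlap under RA, so the control lists of these receptors are not independent of them.

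The strongest shared sites near genes included a known RA target. Ranked by the sum of both ranks, the 8 leading shared peaks within 10 kb of a start had Fcna, Rnase10, Cyp26a1, Ctcfl, Raet1d, 2210016L21Rik, Mapk13 and Morc3 as nearest genes. The peak near Fcna, which encodes the plasma lectin ficolin A, lay 6571 bp downstream of its start at chr2:25628355-25629382, with a RARβ score of 1373.45 (rank 39) and an RXRα score of 3178.7 (rank 2). It was called in all 6 lists. Leading shared peaks further than 10 kb from a start had Col19a1, Lrrc4c and Rpusd4 as nearest genes. Their distances to these starts were 25.9, 2350 and 37.5 kb. Each had a score of 3100 for both receptors and was called in all 6 lists. Scores of 3100 or more were given to 7 RARβ and 8 RXRα peaks. The value 3100 was the highest of the RARβ list, so peaks at 3100 cannot be ranked among themselves there, while the RXRα list went up to 3205.17. The input was not analysed, so whether the regions called in all 6 lists reflect receptor binding was not tested.

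Cyp26a1, which encodes the cytochrome P450 that degrades RA, carried 3 peaks of each receptor within 10 kb of its start, all shared. The highest for both lay 4868 bp downstream of the start at chr19:37702066-37703146, with a RARβ score of 845.19 (rank 104) and an RXRα score of 1509.86 (rank 136). A second site upstream of the start had scores of 358.56 for RARβ and 758.07 for RXRα. The promoter with the DR5 printed above lay under the weakest pair, with a RARβ score of 138.27 and an RXRα score of 84.89. The 2 stronger sites were also called in the RARα, RARβ and RXRα control lists but not in the RARα RA list, whereas the promoter site was in both RARα lists and the RXRα control list.

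Rarb, the gene of RARβ itself, shows what a single start per gene can miss. No peak of either receptor lay within 10 kb of its outermost start. Inside its span lay 8 RARβ peaks, 7 of them shared, and 17 RXRα peaks, of which 7 were shared. The strongest pair, chr14:16574876-16575853 for RARβ (score 787.94, rank 117) and chr14:16574744-16575989 for RXRα (score 950.19, rank 1116), covered the internal promoter with the DR5 printed above and was called in all 6 lists. The second-highest RARβ peak in the gene had a score of 114.87.

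The strongest RARβ-only peaks sat almost on top of gene starts. The leading peaks near genes included those with Srbd1, Abhd2, Tnrc6b, Cnot3, 6030458C11Rik, Glrx5 and Tdrkh as nearest genes, and in 6 of these 7 the midpoint was at most 0.318 kb from the start. The exception was the highest, 5.85 kb upstream of Srbd1 at chr17:86150566-86151559, with a score of 2225.61 (rank 12), which was also called for RARα under RA and RARβ under the control diet. Abhd2, which encodes a serine hydrolase, had a peak of score 1348.93 (rank 40) 0.152 kb upstream of its start. Cnot3 and Tnrc6b, whose products act in mRNA deadenylation and microRNA silencing, had peaks of score 690.7 and 820.49. These 6 promoter peaks were all called for RARα under both diets and for RARβ under the control diet, and 3 of them (Abhd2, Cnot3 and Glrx5) overlapped a peak of the RXRα control list.

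Being without an overlap did not always mean being far from RXRα. The nearest RXRα peak began 62 bp from the Abhd2 peak, 52 bp from the Glrx5 peak and 306 bp from the Tnrc6b peak. By contrast it was 14212 bp away at Cnot3, 20791 bp at Tdrkh and 50361 bp at 6030458C11Rik. Beyond 10 kb from a start, the leading RARβ-only peaks had Prrc2b (score 500.5), Fam222b (354.02) and Klhl25 (342.46) as nearest genes. They lay 12.9, 20.8 and 66.2 kb from these starts.

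The strongest RXRα-only peaks near genes lay mostly outside promoters. Their nearest genes were Pdk4, Tmem169, Slc46a3, Vpreb3, Gemin2, Slc51b, Dynlrb1 and Esam. All 8 peaks were also called for RXRα under the control diet. The highest lay 2.6 kb upstream of Pdk4, a PPARα target whose kinase restrains pyruvate dehydrogenase, at chr6:5498471-5499287 with a score of 1203.98 (rank 451). It had no RARβ partner under RA but overlapped a peak of the RARβ control list. The start of Pdk4 itself was shared, with a RARβ score of 332.79 and an RXRα score of 443.13. Slc51b, the β subunit of the bile acid exporter of the basolateral membrane and an FXR target, had an RXRα peak of score 898.89 (rank 1354) 0.297 kb upstream of its start and no RARβ peak within 10 kb. The nearest RARβ peak was 13221 bp from it, and of the other lists only that of RXRα under the control diet held the site. Beyond 10 kb, leading RXRα-only peaks included those with Lmo4 (1278.22, 59.4 kb away) and 4930447A16Rik (1220.62, 179 kb away) as nearest genes.

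Counting genes in place of peaks, 11234 of 21536 protein-coding genes (52.2%) had a peak midpoint of both receptors within 10 kb of their start. Here and below only the outermost start of a gene counts, so a gene without a peak can carry one at another start or inside its span. RARβ alone was found at 545 genes (2.53%) and RXRα alone at 2062 (9.57%), and 7695 had neither. Of the genes with both, 10853 (96.6%) had at least 1 shared RARβ peak and 381 had both receptors at separate places. At equal length, 8383 genes had both (38.9%), 3396 had RARβ alone (15.8%) and 671 had RXRα alone (3.12%), so RXRα had more genes of its own in the full lists and RARβ had more at equal length.

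Most genes nearest to a receptor-specific peak were also nearest to a shared peak, as were most protein-coding genes. Of the 21536 protein-coding genes, 11846 were nearest to a shared RARβ peak, 2534 to a RARβ-only peak and 11335 to an RXRα-only peak. Of the nearest genes of RARβ-only peaks, 1643 were also nearest to a shared peak, which is 64.8% of the former and 13.9% of the latter. For RXRα-only peaks the number was 8154, which is 71.9% of their nearest genes and 68.8% of those of the shared peaks. For 451 genes RARβ-only peaks were the only class assigned, and for 2741 genes RXRα-only peaks were.

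Genes with RARβ alone within 10 kb were led by Cnot3, the pair 6030458C11Rik and Drosha (1 peak, score 633.93), Tdrkh, Cttnbp2nl, Hip1, Dcaf15, the pair Acot8 and Zswim1 (1 peak, 496.94) and Dgcr8 (474.98). Drosha and Dgcr8 encode the 2 subunits of the nuclear complex that cuts primary microRNAs. In 66.2% of the 545 genes the best RARβ peak was within 1 kb of the start, close to the 62.5% of genes with both receptors. Genes with RXRα alone were led by Slc51b, Tagap (821.15), Cyp2c55 (778.46), a P450 induced through PXR and CAR, and Map3k1 (704.96). In 29.2% of the 2062 genes the best RXRα peak was within 1 kb.

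Among 22 genes of retinoid receptors and retinoid metabolism, 8 had both receptors within 10 kb, 5 had RXRα alone, 0 had RARβ alone and 9 had neither. This share of 36.4% with both was under the 52.2% of all genes, of which 9.57% had RXRα alone. The highest RARβ peaks were at Cyp26a1, at Rxrb, a second RXR (318.27), and at Dhrs3, which reduces retinaldehyde back to retinol (186.51). Rara, the gene of RARα, had 4 RXRα peaks, the best of score 228.83, and no RARβ peak. Rxra had 2 RARβ peaks, the higher of score 71.75, and 5 RXRα peaks, the highest of score 253.8. Aldh1a2, Bco1 and Rdh11 also had RXRα alone. Lrat and Stra6, which serve retinol storage and uptake, had no peak of either.

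Genes of the classical RXR partners carried both receptors almost throughout, and so did the lists of complement and coagulation, urea cycle and apolipoprotein genes. Both were found at 26 of 27 PPARα targets and genes of fatty acid oxidation, 15 of 17 LXR targets and lipogenic genes, 14 of 16 FXR targets and bile acid genes, 13 of 14 PXR and CAR targets, 25 of 28 complement and coagulation genes, 16 of 16 genes of the urea cycle and amino acid catabolism and 13 of 13 apolipoprotein genes, beside 52.2% of all genes. RARβ alone was found at 0 genes of these lists in full, beside 2.53% of all genes. RXRα alone was found at Cd36, Me1, Slc51b, Cyp2c29, C9, F5 and F13b. At equal length the count with both was the same in the PPARα, PXR and CAR, and complement lists, and it was 13 of 17 in the LXR list, 13 of 16 in the FXR list, 15 of 16 in the urea cycle list and 12 of 13 among apolipoproteins, beside 38.9% of all genes. RARβ alone was then found at 2 genes of the LXR list and at 1 gene each of the FXR, urea cycle and apolipoprotein lists.

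By median, the best RXRα peak stood higher in its own list than the best RARβ peak in each of these 7 lists when ranks were taken as a percentage of the list. The best RXRα peak of a PPARα list gene stood at 5.6% of the RXRα list in the median, and the best RARβ peak at 33.6% of the RARβ list. The values were 5.23% and 39.4% for the FXR list, 7.66% and 43.4% for the PXR and CAR list, 11.4% and 63.5% for the apolipoproteins, and 13.1% and 40.4% for the urea cycle list. The gap was smaller for the complement list, with 13.4% and 29%, and the LXR list, with 13.1% and 23.7%. The RXRα list is the longer one, and by plain rank the complement list was nearly level, with medians of 7990 for RXRα and 8560 for RARβ, while the LXR list had the reverse order, with 7790 and 6970. Over all genes with a peak the percentages were 35.5% and 28.6%.

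Single genes of these lists went either way. Cpt1a, the carnitine palmitoyltransferase that admits fatty acids to mitochondria, had a best RXRα score of 727.78 (rank 2504) and a best RARβ score of 97.88 (rank 15008). Cyp7a1, the rate-limiting enzyme of bile acid synthesis, had 2 shared sites, with RXRα scores of 722.04 and 712.67 and RARβ scores of 76.41 and 117.39. Nr0b2, the corepressor SHP that FXR induces, had 3 RARβ and 5 RXRα peaks, all shared, with best scores of 246.28 and 1163.68. At Abca1, the LXR-induced cholesterol exporter, the promoter peak had a RARβ score of 184.2 and an RXRα score of 604.9. Fasn, the fatty acid synthase, had the highest RARβ score of the LXR list, 388.86 (rank 680), with an RXRα score of 1098.98 (rank 655) at a site upstream of its start. At Apom, which encodes an apolipoprotein of high-density lipoprotein, the best RARβ peak ranked 3698 and the best RXRα peak 36051. The ranks were likewise 906 and 13150 at Got1, 1910 and 10404 at C8g, and 3049 and 9421 at Nr1h3, the gene of LXRα. Creb3l3 (252.21) and Acsl1 (215.5) followed Pdk4 by RARβ score in the PPARα list, Nr1h3 (227.28) and Scd1 (212.81) followed Fasn, and Slc10a1 (253.4), Nr0b2 and Klb (219.43) led the FXR list. By the same score, Nr1i3, the gene of CAR (283.54), Cyp2b13 (219.83) and Por (156.67) led the PXR and CAR list. Serpinf2 (499.33) and C8g (269.61) were among the highest of the complement list, and Gls2 (412.37), Got1 (353.71) and Cps1 (298.22) led the urea cycle list, and Apom (211.39), with Apoe and Apoc1 sharing a site (188.71), led the apolipoproteins.

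Genes of cell maintenance also carried both receptors, with RARβ ahead by median rank, as it was over all genes with a peak. Both receptors were found at 77 of 81 cytosolic ribosomal protein genes, 74 of 78 mitochondrial ribosomal protein genes, 36 of 38 genes of respiratory complex I and 33 of 39 proteasome genes, beside 52.2% of all genes. The best RARβ peak of a cytosolic ribosomal protein gene stood at 19.6% of the RARβ list in the median and the best RXRα peak at 42.1% of the RXRα list. Complex I gave 17.1% and 29.2%, and the mitochondrial ribosomal proteins 23.6% and 32.5%. The proteasome was nearly level, with 33.1% and 35.4%, beside 28.6% and 35.5% over all genes. With the lists at equal length, 26 of the 81 cytosolic ribosomal protein genes had RARβ alone, as had 17 of 78, 5 of 38 and 10 of 39 genes of the other lists, beside 15.8% of all genes.

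Within the full lists RARβ alone was found at Mrpl57, Mrps35 and Mrps23, and at the proteasome genes Psmd10, Psmb5 and Psmb11, of which the last pair shared 1 peak of score 69.71. Rps19 (599.44), Rpl29 (477.93) and Rps3a1 (452.55) had the highest RARβ scores among the cytosolic ribosomal proteins. Mrpl20 (497.81), Mrpl37 (473.85) and Mrps34 (430.99) led the mitochondrial ones, Ndufs7 (490.7), Ndufa6 (435.44) and Ndufb7 (388.55) complex I, and Psmb3 (731.78), Psmb2 (489.91) and Psmd5 (398.2) the proteasome.

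By median rank, cholesterol synthesis genes stood higher for RARβ than for RXRα, and clock genes stood high for both. Of 24 genes of cholesterol synthesis and uptake, 22 had both receptors, beside 52.2% of all genes. Their best RARβ peak stood at 25.4% and their best RXRα peak at 40.6%, the order seen at ribosomal protein genes. Over all genes with a peak the order was the same, with 28.6% and 35.5%. Mvk, the mevalonate kinase, had a RARβ score of 482.05 (rank 411) and an RXRα score of 191.96 (rank 23126) at its promoter. Hmgcs1 (432.44) and Fdft1 (347.82) came next by RARβ score. Nsdhl, a sterol dehydrogenase, had RARβ alone (115.3), and Pmvk had RXRα alone. Of 19 clock genes 17 had both, beside 52.2% of all genes, with medians of 14.8% for RARβ and 10.9% for RXRα, the highest ranks for RARβ among the lists. Nr1d2 (415.97) and Nr1d1 (363.54), which encode the REV-ERB repressors, and Ciart (365.43) led the clock genes by RARβ score. Arntl and Rora had neither receptor within 10 kb of the outermost start, and peaks elsewhere in these genes were not counted.

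**Figure D5:**
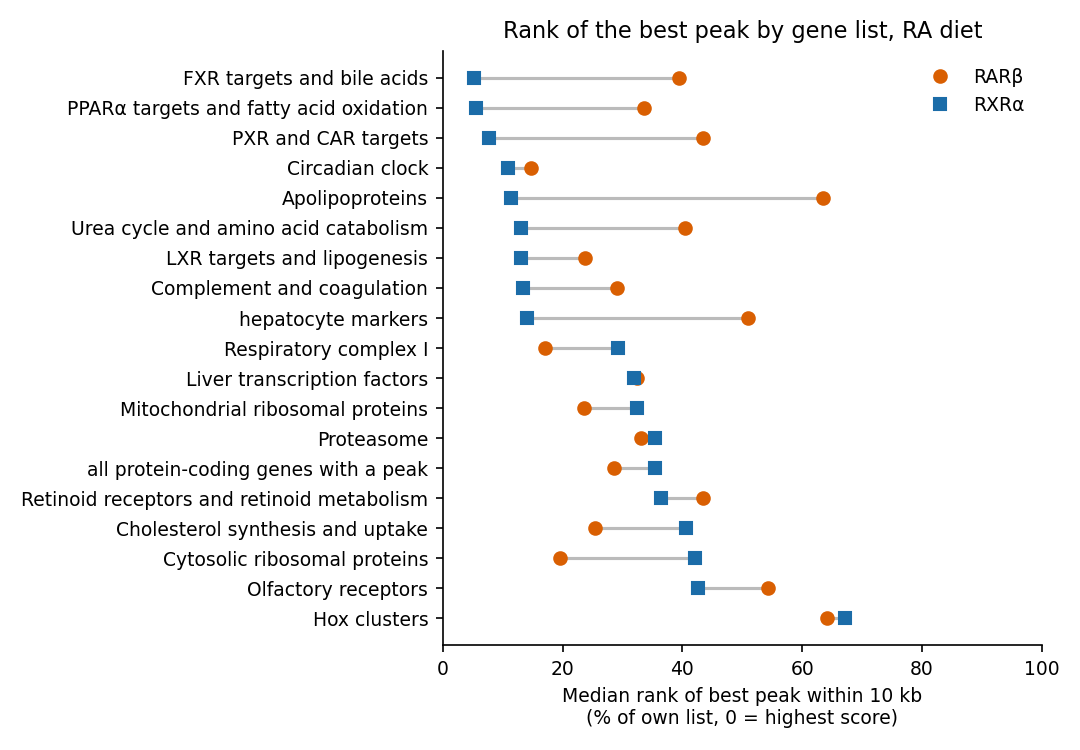
Median position of the best peak within 10 kb of each gene of a list, as a percentage of the own list (x axis, 0 is the highest score), for RARβ (circles) and RXRα (squares), over lists with at least 8 members carrying each receptor. RXRα stands at 5.23% and RARβ at 39.4% in the FXR list, and RXRα stands at 42.1% and RARβ at 19.6% for cytosolic ribosomal proteins.

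Of 19 liver transcription factors 14 had both, beside 52.2% of all genes. RARβ was led by Nr2f6 (311.21), Nr5a2 (196.08) and Hhex (169.39), and RARβ alone was found at Nr2f1 (52.32). Genes with RXRα alone within 10 kb of the outermost start included Hnf4a (66.51), Prox1 and Gata4. Markers of hepatocytes carried both in 9 of 10 genes, beside 52.2% of all genes, with Cps1, Tat (111.02) and Fgb (108.86) highest for RARβ. The exception was Alb, the albumin gene, which had 2 RXRα peaks (411.73 and 306.27) and no RARβ peak. Markers of other liver cells were mostly without RARβ. It was found at 0 of 8 stellate cell markers, 0 of 8 Kupffer cell markers, 3 of 8 endothelial markers (Clec4g, with RARβ alone at 121.46, Flt4 at 94.62 and Lyve1 at 66.08) and 1 of 7 cholangiocyte markers (Sox9 at 61.04), while RXRα was found at 4, 3, 5 and 3 of them. Over all 21536 genes, 11779 had RARβ and 13296 had RXRα within 10 kb. Of 8 neuron markers Slc17a7 had both (RARβ 91.35) and the other 7 had neither.

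Of 1104 olfactory receptor genes, silent in liver, 32 had both receptors (2.9%), 9 had RARβ alone (0.815%), 36 had RXRα alone (3.26%) and 1027 had neither. Over all genes these shares were 52.2%, 2.53% and 9.57%, so the 2 peak lists were not spread evenly over genes. Olfr311 (636.38), Olfr806 (372.41) and Olfr541 (312.58) had the highest RARβ scores of that family. Of 39 genes of the Hox clusters, which RA controls in the embryo, 10 had both, 4 had RXRα alone and 25 had neither. At equal length 2 of the Hox genes had both and 8 had RARβ alone, beside 38.9% and 15.8% of all genes. Hoxd4 had the highest RARβ score (144.61), followed by a site shared by Hoxa4 and Hoxa5 (108.35).

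The promoter windows differed in sequence between the classes. The RefSeq table held 21263 windows of 300 bases for 17492 genes, of which 5461 lay wholly inside a peak of each receptor, 752 inside a RARβ-only peak and 538 inside an RXRα-only peak. Another 11590 touched no peak of either, and the remainder were covered in part. A half-site on either strand was found in 41.2% of all windows, 40.5% of those under both (39.2 to 41.8), 26.3% under RARβ alone (23.3 to 29.6), 50.2% under RXRα alone (46 to 54.4) and 43.3% under neither. The letters AGGTCA alone gave 14.7% of all windows and 13.8%, 7.58%, 18.6% and 16.4% of the 4 classes in that order.

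Direct repeats of the half-site were rare everywhere. A DR1, with a spacer of 1 base, was in 0.183% of all windows, in 20 windows under both (0.366%), in 0 of 752 under RARβ alone and in 3 of 538 under RXRα alone (0.558%). A DR5 was in 17 of all windows (0.08%), of which 14 were under neither receptor (0.121%) and 3 under both (0.0549%), among them Cyp26a1 and Rarb. The share with a DR5 was thus not higher under shared peaks than under no peak. A direct repeat with any spacer from 0 to 5 bases was in 0.607% of all windows, and in 0.623%, 0.266%, 1.12% and 0.638% of the 4 classes. Windows under RARβ alone were rich in CpG, with a median observed to expected ratio of 0.825, close to the 0.818 of those under both, against 0.636 under RXRα alone and 0.283 under neither. Half-sites outside promoters were not analysed here.

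The classes were spread over all chromosomes. The shared part of the RARβ list ran from 88.6% to 91.6% on the autosomes and was 84.8% on chromosome X. That of the RXRα list ran from 42.4% to 49.3% on the autosomes and was 34% on chromosome X. On chromosome Y, with 66 RARβ and 114 RXRα peaks, the shares were 86.4% and 50%.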

How the data were processed

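ChIP-seq libraries of mouse liver were single-end with reads of 35 bp. Per the labels and the study's methods, the authors aligned reads to mm10 with Bowtie and called peaks per library with MACS against input. The deposited files give each peak's position and score, a multiple of the negative log10 of the caller's p, without normalization between libraries. The study's filter of enrichment over input could not be applied to these scores. The read totals behind each list are not given in the lists.

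Lists were compared with Python 3.11.15 and pandas 2.3.3. The overlap code was tested on simulated data and against bedtools 2.31.1. Equal length kept the highest scores, with ties in genome order. Distances ran from the peak midpoint to the outermost start of 21536 of 21887 protein-coding genes (98.4%) in the RefSeq table of GRCm38.p6. The strand came from the RefSeq promoter table for 17492 genes and by symbol from GENCODE M1 for 4044. Starts of GRCm38 lay within 1 kb of 26.8% of the RARβ midpoints and those of NCBIM37 of 4.39%, so only GRCm38 positions were used. Promoter windows of chromosome 18 were left out when the printed windows were chosen but are counted in the shares of windows.

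Groups (receptor and diet) came from the labels. The members, gene lists and rules were chosen with earlier results of these data known. Gene lists came from general knowledge and symbol patterns. The patterns for ribosomal proteins and complex I were narrowed after their values were seen, to leave out kinases, assembly factors and other genes that are not subunits. Genes were named by rule, namely for each class the 8 highest-scoring peaks with distinct nearest genes within 10 kb and the 3 highest beyond, for each gene list the 3 members with the highest RARβ score and every member with RARβ alone, and 8 genes always (Cyp26a1, Rarb, Rxra, Rara, Cyp7a1, Nr0b2, Abca1 and Cpt1a). Members with RXRα alone, the leading genes with a single receptor and other examples were chosen after their values were seen. Some genes that these rules name are not reported here.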

Additional observations from a re-analysis of the deposited data

How the results depend on the processing

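No paired analysis was possible because each receptor had 1 library and the results come from no test. Alternatives were equal list length, a score of at least 100 in both lists, an overlap of at least 25% of each width, 200 bp windows around the midpoints, starts of genes of every type, a limit of 1 kb for genes and, chosen after seeing the data, every annotated start. Of 38 alternative values of the 8 main results, 9 stayed within the counting interval or 1.5 times the count, and 29 moved, though RARβ-only peaks lay near starts more often than RXRα-only peaks under each of the settings. The shared share of RARβ peaks was 68.3% at equal length, 88.5% at a score of 100, 89.9% at 25% overlap and 76.6% with windows. For RXRα peaks it was 67.8%, 33.5%, 44.8% and 37.9%. Within 1 kb of a start lay 20.7%, 32.8% and 24.1% of shared RARβ peaks (equal length, score, windows), 28.9% with genes of every type and 29.1% with every start. For RARβ-only peaks the values were 39.8% and 69.1% (equal length, score), 36.3% and 38.9% (both kinds of starts), and for RXRα-only peaks 3.9%, 7.09%, 5.45%, 9.05%, 7.07% and 6.03% (equal length, score, 25% overlap, windows, both kinds of starts). Genes with RARβ alone were 3396 at equal length, 934 at a score of 100 and 981 within 1 kb, and genes with RXRα alone 671, 3343 and 1327. Equal length and the score limit drop peaks by construction; the cause of the other moves was not tested. At equal length, the number of genes with both stayed within 1.5 times in 20 of 23 gene lists. These include the stellate cell and Kupffer cell markers, which had 0 genes with both in the full lists and so could not move.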
